A study of Homo sapiens with 6 samples.

Results

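The clustered histone genes encode the core histones H2A, H2B, H3 and H4 and the linker histone H1. They were taken as all rows of the deposited expression table whose symbol begins with H1-, H2AC, H2BC, H3C or H4C, without pseudogenes. Of 35793 genes listed, 86 rows matched, 16 of them pseudogenes by name, which left 70 genes. RefSeq lists 55 of them in the large cluster on chromosome 6 and 11 in the smaller cluster on chromosome 1. The other 4 share the H1- prefix and lie outside both clusters. By class there were 10 H1, 16 H2A, 17 H2B, 13 H3 and 14 H4 genes.

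RNA was measured in cardiomyocytes collected on day 15 of differentiation, all made from the established human stem cell line WTC11. The wild type was unedited WTC11, and the STK25KO samples came from 1 derived line carrying a homozygous CRISPR/Cas9 knockout of STK25, a serine/threonine kinase. Each genotype had 3 biological replicates, so 6 libraries were compared, and effects of the edit and of the line itself cannot be told apart. The comparison addresses how the transcriptome of these cells differs without STK25.

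Most clustered histone genes are replication-dependent: cells transcribe them as DNA is copied in S phase and degrade their mRNAs when S phase ends. Their mRNAs normally carry no poly(A) tail and end just after a short stem-loop in the 3′ untranslated region, which the stem-loop binding protein SLBP recognises. Some of the genes can also give longer, polyadenylated transcripts, and cells that stop dividing use more of these. The cDNA kit named in the labels primes on poly(A) tails, so the values below are of histone transcripts that were captured that way and are not the total of histone mRNA. Cardiomyocytes leave the cell cycle as they mature, and cultures of this kind hold both dividing and non-dividing cells.

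The stem-loop is shown first, because it defines this family and separates the annotated short ends from the longer ones. A match with the stem-loop pattern after the stop codon was found in GENCODE 29 for 28 of the 70 genes, between 22 and 67 bases after the stop codon. It was found in 11 of 19510 other coding genes (0.0564%), a set that also leaves out the histone genes H2AW, H2BU1, H3-4 and H4-16. Over all coding genes, with these and the 70 included, 43 of 19584 held a match. For 34 of the genes the annotated transcript ends with the coding part, so no match could be found there. One 16-base core was shared by 15 genes of the H2A, H2B and H3 classes, H2BC21 among them. H2AC11 held a core found in no other of the 28, and H4C5 held a core shared by 4 H4 genes. The 16 bases of the stem-loop are in capitals, with 5 bases on each side.
H2BC21: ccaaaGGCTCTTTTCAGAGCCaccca
H2AC11: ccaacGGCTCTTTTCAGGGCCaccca
H4C5: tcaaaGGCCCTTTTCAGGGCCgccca

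Between the genotypes, 3 of the 43 histone genes with enough reads to test were called higher in the knockout and 0 lower. A gene was called where its adjusted p was under 0.05. H2BC21, an H2B gene of the chromosome 1 cluster, rose 1.87-fold, and the linker histone genes H1-3 and H1-4 rose 2.23-fold and 2.09-fold. The test was limma on log2(value + 1) with Benjamini-Hochberg adjustment over the 15536 genes whose normalized counts averaged 10 or more. The 3 genes are 6.98% of the histone genes tested, whereas 12.8% of all genes tested had an adjusted p under 0.05. By direction, 5.97% of all genes tested were called higher and 6.79% lower. At an unadjusted p under 0.05 in limma, 3 of the 43 histone genes were higher and 4 lower. Over all 15536 genes tested, 4275 had such a p in either direction. H3C14 and H3C15, which had identical values, are among the lower ones, and counting them once leaves 3 lower. The median log2 fold change of the 43 histone genes was 1.03e-05, beside 0.0052 for all genes tested, with 22 fitted above 0 and 21 below. The intervals below are wide, so a gene outside the 3 is not shown to be equal in both genotypes. Many changes were also missed on data simulated with the spread of these libraries, though with a smaller share of genes changed than was called here.

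H2BC21 (HIST2H2BE in the older naming, chr1:149884459-149886682 in RefSeq GRCh38.p14, minus strand, 1 exon in GENCODE 29) had the highest level of the 70 genes. Its normalized counts were 4039, 3676 and 4220 in wild-type replicates 1, 2 and 3, and 6193, 8064 and 8244 in knockout replicates 1, 2 and 3. All knockout libraries lay above all wild-type libraries. The means were 3978 ± 277 and 7500 ± 1136 (SD, n = 3 each), and the log2 fold change was 0.91 (SE 0.19, 95% interval 0.46 to 1.35, limma adjusted p 0.0206). Without any 1 of the 6 libraries, the log2 fold change ran from 0.83 to 1.04, and the limma adjusted p was 0.00987 without knockout replicate 1 and between 0.051 and 0.0974 without each of the others. With libraries scaled to equal totals it was 0.62 with an adjusted p of 0.158.

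H1-3 and H1-4 encode linker histones, which bind the nucleosome where DNA enters and leaves it. H1-3 (HIST1H1D, chr6:26234212-26234987, minus strand) had 145, 252 and 148.6 normalized counts in the wild-type libraries and 427, 360 and 397 in the knockout libraries. The knockout libraries did not overlap the wild-type ones, and wild-type replicate 2 was the highest of its genotype. Its log2 fold change was 1.16 (SE 0.30, 95% interval 0.46 to 1.86, limma adjusted p 0.0446). H1-4 (HIST1H1E, chr6:26156329-26157115, plus strand) had 406, 710 and 429 in the wild-type libraries and 1228, 1080 and 854 in the knockout libraries. These did not overlap either, and the log2 fold change was 1.06 (SE 0.29, 95% interval 0.40 to 1.72, limma adjusted p 0.0487). When single libraries were dropped, both genes kept an adjusted p under 0.05 in 1 fit of 6, the one without wild-type replicate 2 (0.0246 and 0.0235), and reached 0.172 and 0.185 without wild-type replicate 1. With equal totals their log2 fold changes were 0.88 and 0.78, with adjusted p-values of 0.0814 and 0.0928.

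**Figure D1:**
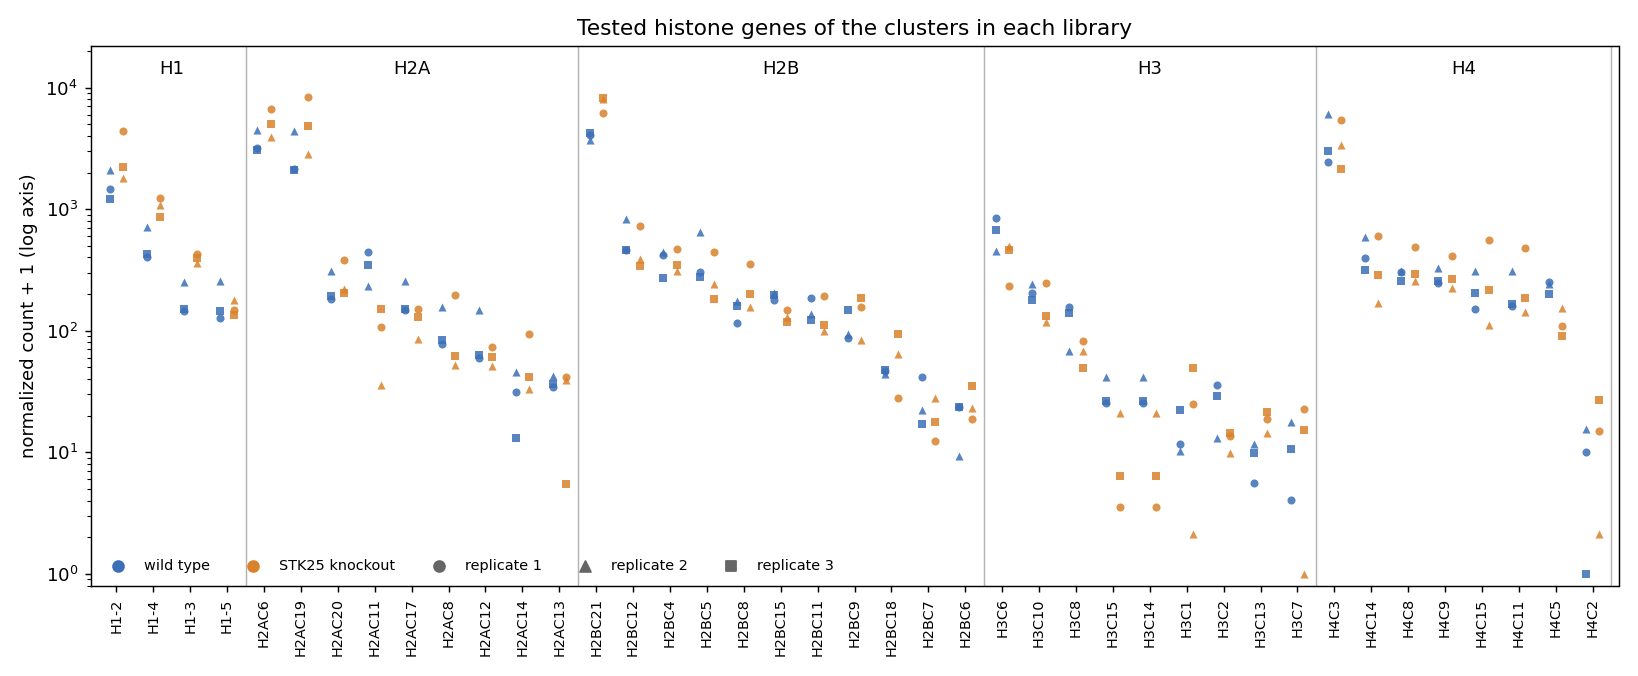
Normalized count + 1 (log axis) of the 41 tested histone genes that lie in the clusters, in each of the 6 libraries, grouped by class and ordered by mean; colour marks the genotype and shape the replicate number. H2BC21, H1-3 and H1-4 lie higher in all 3 knockout libraries, H2AC11 and H4C5 lower in all 3, and wild-type replicate 2 and knockout replicate 1 are often the highest of their genotype.

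H2AC11 and H4C5 had the smallest p-values among the genes that were lower, and are named after their values were seen. H2AC11 (HIST1H2AG, an H2A gene, chr6:27133043-27133535, plus strand) had 440, 230 and 345 normalized counts in the wild-type libraries and 106, 34.6 and 151 in the knockout libraries. The ranges did not overlap, and the log2 fold change was -1.98 (SE 0.56, 95% interval -3.27 to -0.68), but the limma adjusted p was 0.0576. DESeq2 on the recovered reads gave an adjusted p of 0.00808 and edgeR 0.0683. H4C5 (HIST1H4E, an H4 gene, chr6:26204610-26205021, plus strand) had 251, 241 and 200 in the wild-type libraries and 108, 154 and 89.8 in the knockout libraries, again without overlap. Its log2 fold change had a 95% interval of -1.74 to -0.26 (SE 0.32, limma adjusted p 0.0829), a fitted ratio of 0.50. DESeq2 gave it an adjusted p of 0.0253 and edgeR 0.0996.

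The number of histone genes called depended on the fit. edgeR called 1 (H2BC21), with 12.0% of all genes called, and DESeq2 called 5, adding H2AC11 and H4C5, with 20.7%. With libraries scaled to equal totals 1 was called, H2AC11, with 13.0% of all genes, and with equal upper quartiles 1, H2BC21, with 12.5%. Variance moderation without a trend left H2BC21 alone, with 10.9%. With no filter on low genes 3 of 63 were called (H2BC21, H1-1 and H3C3), with 7.36% of all genes. H1-1 and H3C3 had means of 2.51 and 3.34 normalized counts.

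The genotypes did not overlap in 10 of the 43 genes, 5 higher and 5 lower in the knockout. That is 23.3% of the histone genes tested, beside 33.4% of all genes tested. H2BC21, H1-3, H1-4 and H3C13 were among the higher ones. The lower ones were H2AC11, H4C5, H2BC15, H3C14 and H3C15. H3C14 and H3C15 had identical values in every library and identical annotated coding sequences, so they are 1 measurement listed under both symbols.

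**Figure D2:**
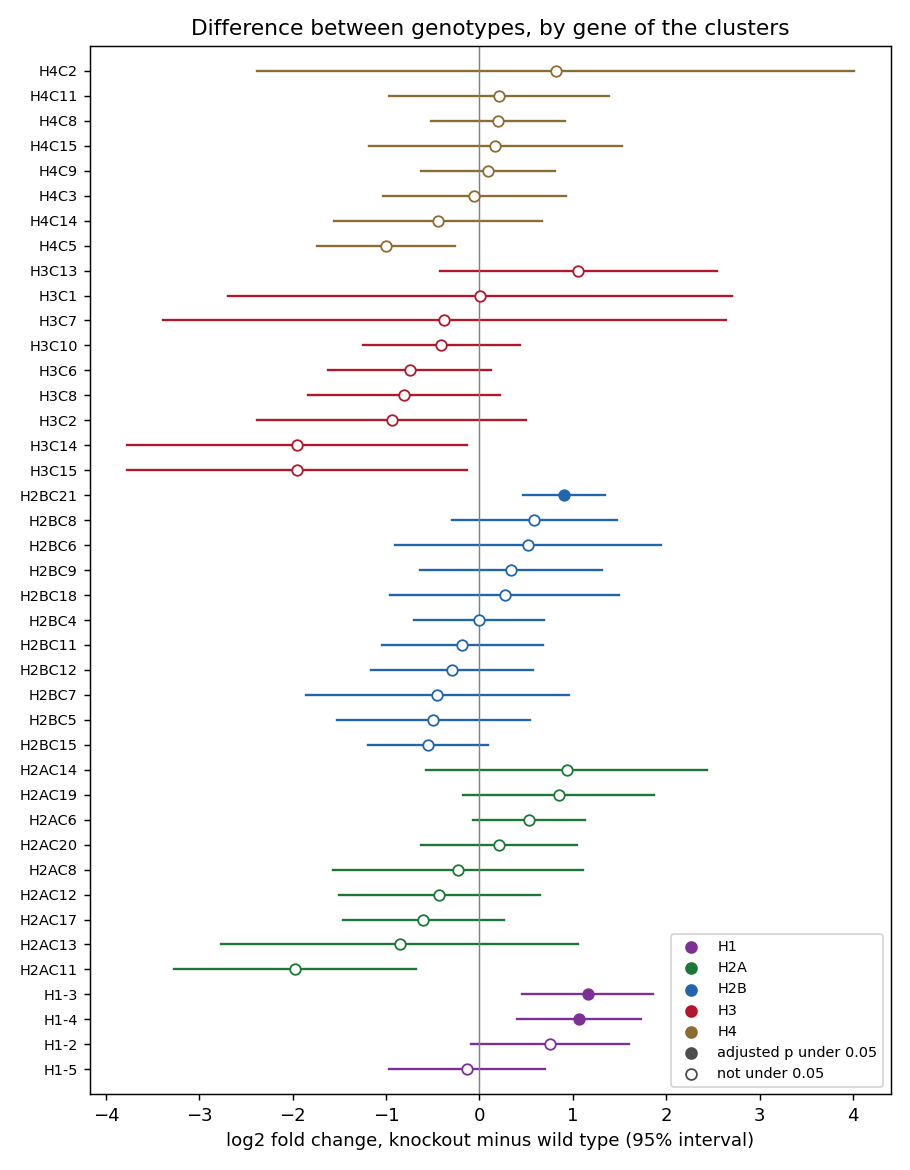
Log2 fold change (knockout minus wild type) with its 95% interval from limma for the 41 tested histone genes that lie in the clusters, coloured by class; filled points have an adjusted p under 0.05. The filled points are H1-3, H1-4 and H2BC21, and the intervals of 34 of the 41 genes include 0.

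Among the linker histones, 5 of the 6 tested genes were fitted higher in the knockout, and 2 of them, H1-3 and H1-4, passed the test. Over all genes tested, 12.8% passed in either direction and 5.97% as higher. edgeR called 0 of the 6 (adjusted p 0.0572 for H1-3 and 0.0575 for H1-4) and DESeq2 called 2, H1-3 and H1-4. H1-10 (H1FX), which lies outside the clusters, had 3684 ± 1079 normalized counts in wild type and 5806 ± 1811 in the knockout (SD, n = 3 each). It was fitted at 0.65 on the log2 scale (limma adjusted p 0.198). H1-2 (HIST1H1C) had 1474, 2088 and 1208 in the wild-type libraries and 4421, 1799 and 2230 in the knockout libraries. Those ranges overlapped, since wild-type replicate 2 exceeded knockout replicate 2 (log2 fold change 0.75, limma adjusted p 0.233). H1-5 was the linker gene fitted lower, at -0.13 (limma adjusted p 0.858). H1-6, H1-7 and H1-1 had at most 7 reads in any library, and H1-8 had none.

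Of the 16 H2A genes, 9 were tested and 0 passed the threshold in limma, with 1 at an unadjusted p under 0.05. edgeR called 0 of them and DESeq2 1, H2AC11. H2AC6 (HIST1H2AC) had 3160, 4473 and 3059 normalized counts in wild type and 6661, 3912 and 4969 in the knockout, and the ranges overlapped. Its log2 fold change was 0.53 (SE 0.26, limma adjusted p 0.236). H2AC19 (HIST2H2AA4) had 2146, 4356 and 2080 in wild type and 8402, 2820 and 4807 in the knockout. It varied more within the knockout than between the genotype means (log2 fold change 0.85, SE 0.44, limma adjusted p 0.262). H2AC18 shares its coding sequence and had no read in any library, so the H2AC19 value may stand for both copies. H2AC20, the partner of H2BC21, was fitted at 0.21 (limma adjusted p 0.770).

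Of the 17 H2B genes, 11 were tested. H2BC21 carried most of the class, and the class without it had a sum of 2062 ± 482 in wild type and 1909 ± 565 in the knockout (SD, n = 3 each), with overlapping libraries. H2BC12 (HIST1H2BK) was fitted at -0.29 (SE 0.37, limma adjusted p 0.677). H2BC4 (HIST1H2BC) had 417, 445 and 269 normalized counts in wild type and 469, 309 and 344 in the knockout. Its 95% interval ran from -0.70 to 0.70 on the log2 scale.

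The H3 genes were mostly fitted lower: with H3C14 and H3C15 counted once, 6 of 8 tested, with a median log2 fold change of -0.58. In limma 0 passed the threshold, with 1 at an unadjusted p under 0.05 (H3C14), and edgeR and DESeq2 called 0. H3C6 (HIST1H3E), the most abundant of them, had 843, 447 and 671 normalized counts in wild type and 231, 497 and 464 in the knockout. Wild-type replicate 2 lay among the knockout values (log2 fold change -0.75, SE 0.38, limma adjusted p 0.249). H3C10 was fitted at -0.41 (limma adjusted p 0.527) and H3C8 at -0.81 (limma adjusted p 0.288). H3C14, with its copy H3C15, was fitted at -1.96 (SE 0.79, limma adjusted p 0.153) on a mean of 19.7 normalized counts.

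Of the 14 H4 genes, nearly all of which encode the same protein, 8 were tested and 0 passed the threshold in limma, with 1 at an unadjusted p under 0.05. edgeR called 0 of them and DESeq2 1, H4C5. H4C3 (HIST1H4C) had 2453, 6003 and 2996 normalized counts in wild type and 5367, 3391 and 2155 in the knockout. Its spread within each genotype exceeded the difference between the means (log2 fold change -0.06, SE 0.42, limma adjusted p 0.954). H4C8 was fitted at 0.20 (limma adjusted p 0.741). H4C14 and H4C15 have identical coding sequences and were fitted at -0.44 and 0.17. Their sum was 652 ± 214 in wild type and 646 ± 458 in the knockout.

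Summing copies keeps reads that near-identical genes may trade. The sum over all 70 genes was 25800, 36716 and 26421 normalized counts in the wild-type libraries and 51428, 34184 and 38467 in the knockout libraries. Wild-type replicate 2 exceeded knockout replicate 2, so the genotypes overlapped, and the ratio of the means was 1.40. The H1 sum was higher in every knockout library than in any wild-type library, 9542 ± 1630 against 14613 ± 2960 (SD, n = 3 each), a ratio of 1.53. The 4 H1 genes outside the clusters made up most of it, with 7074 ± 968 and 10190 ± 1491. The H1 genes in the cluster summed to 2468 ± 739 and 4423 ± 1567, also without overlap, a ratio of 1.79. The H2B sum went from 6040 ± 216 to 9410 ± 584 without overlap, a ratio of 1.56, which H2BC21 carried. The H3 sum went from 1106 ± 206 to 730 ± 62.9 without overlap, a ratio of 0.66. The H2A and H4 sums overlapped between genotypes, at ratios of 1.51 and 0.97. With equal totals the ratios were 1.25 for H1, 1.29 for H2B and 0.54 for H3, still without overlap, 1.22 for H2A and 0.79 for H4. For H2B the genotypes barely separated there: the class took 0.01749% of the reads of wild-type replicate 3 and 0.01757% of those of knockout replicate 1. The smallest exact permutation p that 3 against 3 libraries allow is 0.1, so no p is given for these sums.

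**Figure D3:**
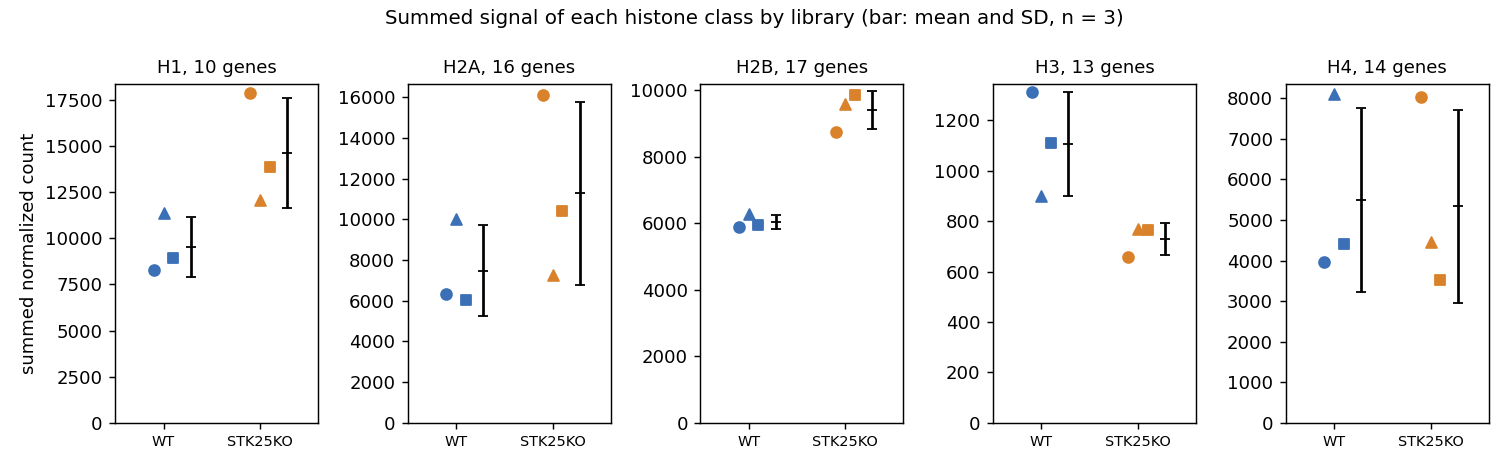
Summed normalized count of each histone class in each library (points, shape by replicate number), with the mean and SD of 3 libraries as a bar beside them; each axis starts at 0 and has its own scale. The H1 and H2B sums lie higher and the H3 sum lower in all 3 knockout libraries, and the H2A and H4 sums overlap. The H1 sum includes the 4 H1 genes outside the clusters, which make up most of it.

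The chromosome 1 cluster had a sum of 7832 ± 1337 in wild type and 13855 ± 2343 in the knockout (SD, n = 3 each), without overlap. Without H2BC21 that cluster's sum was 3854 ± 1598 and 6355 ± 3337, with overlap. The chromosome 6 cluster had 14740 ± 3924 and 17315 ± 5444, with overlap.

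Levels within the family were uneven. H2BC21, H1-10, H2AC6, H2AC19 and H4C3 each held between 10.8% and 16.1% of the reads of all 70 genes. At the other end, 27 genes had a mean under 10 and were not tested, 9 of them had at most 3 reads in every library, and 7 had no read. Per kilobase of the longest GENCODE 29 transcript, which may differ from the transcript quantified, the order changed. H4C3 had a mean of 8569 normalized counts per kilobase, H2AC19 7273, H1-2 3432, H1-10 3149, H2AC6 2643 and H2BC21 2616. All histone genes together took from 0.0761% to 0.103% of a library's reads.

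Levels differed by annotated 3′ end. All 20 genes whose transcript is annotated to run 100 or more bases past the stem-loop were tested, with a median of 189 normalized counts over the 6 libraries. Of the 34 whose annotated transcript ends with the coding part, 12 were tested and the median was 3.99. The 8 that end under 100 bases past the stem-loop had a median of 67.9, and the 8 with no match in an annotated 3′ part had 463. Among genes in the clusters, the median log2 fold change of the tested genes was -0.20 for the 20 long-ended genes, -0.07 for 12 that end with the coding part, -0.01 for 6 that end near the stem-loop and -0.06 for 3 with no match. No difference between these groups was tested. Annotated length also changes which reads a transcript can receive, and its part in these levels was not tested.

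**Figure D4:**
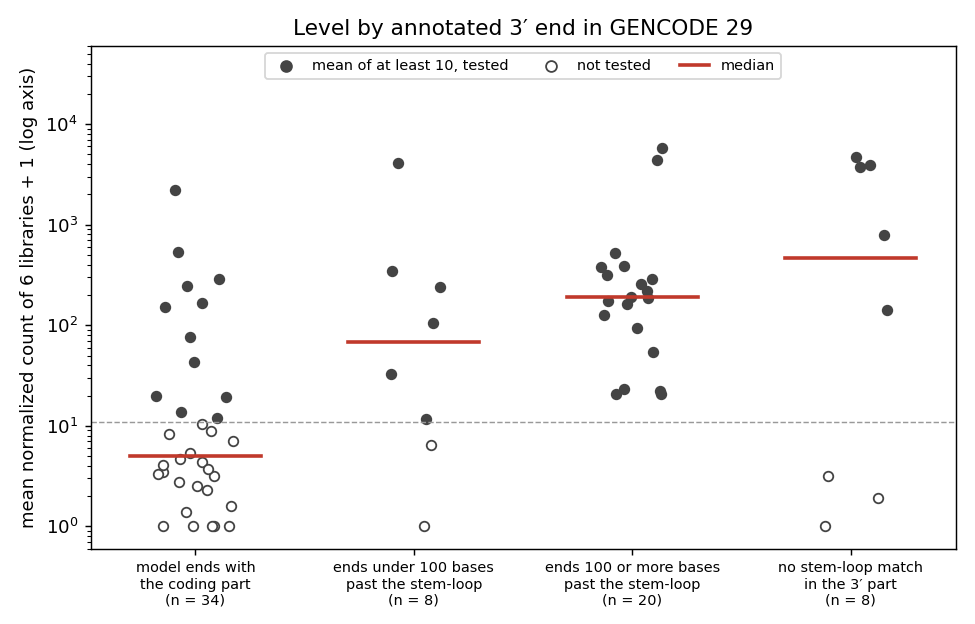
Mean normalized count of the 6 libraries + 1 (log axis) for all 70 histone genes by annotated 3′ end in GENCODE 29; filled points were tested, the dashed line marks a mean of 10 and the red bars are medians. The 20 genes with a long annotated end lie above the line, and 22 of the 34 that end with the coding part lie below it.

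Many H2A and H2B genes sit head to head and share the interval between their starts. RefSeq gives 11 such pairs with under 1000 bases between the starts, and 2 pairs of H3 with H2B, H3C4 with H2BC7 and H3C7 with H2BC9. In 5 of the 11 both genes were tested, and in 4 of these the fitted values had the same sign, counting H2BC4 at 1.03e-05. The intervals of H2BC21 with H2AC20 and of H2BC11 with H2AC11 are shown because each holds a gene singled out above. H2BC21 and H2AC20 were fitted at 0.91 and 0.21, and H2BC11 and H2AC11 at -0.18 and -1.98. No difference between partners was tested. Upstream bases of H1-3 and H1-4 are shown for comparison with each other. Capitals mark the letters CCAAT, the TATA box TATAAA, the octamer ATTTGCAT known from H2B promoters and the H1 box AAACACA, searched on both strands, so their reverse complements are in capitals too. In the H2BC11 interval the forward and reverse TATAAA matches overlap. All are RefSeq GRCh38.p14, read 5′ to 3′ on the strand given. Both intervals are therefore read on the strand of the H2B gene, and run from the H2A start to the H2B start.
H2BC21 to H2AC20, chr1:149886683-149886917, minus strand: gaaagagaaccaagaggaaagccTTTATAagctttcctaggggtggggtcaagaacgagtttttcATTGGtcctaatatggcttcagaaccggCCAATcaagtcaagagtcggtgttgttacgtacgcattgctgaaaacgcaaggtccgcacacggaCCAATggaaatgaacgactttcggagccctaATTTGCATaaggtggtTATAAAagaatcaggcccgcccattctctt
H2BC11 to H2AC11, chr6:27132796-27133042, minus strand: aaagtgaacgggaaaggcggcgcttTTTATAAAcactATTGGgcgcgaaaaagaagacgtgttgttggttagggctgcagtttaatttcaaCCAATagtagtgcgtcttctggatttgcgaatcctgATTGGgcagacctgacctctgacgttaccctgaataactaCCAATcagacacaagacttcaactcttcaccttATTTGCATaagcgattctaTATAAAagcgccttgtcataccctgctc
H1-3 upstream, chr6:26234988-26235137, minus strand: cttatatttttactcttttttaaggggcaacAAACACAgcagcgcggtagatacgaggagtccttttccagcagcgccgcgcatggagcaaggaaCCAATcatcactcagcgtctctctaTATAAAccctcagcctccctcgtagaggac
H1-4 upstream, chr6:26156179-26156328, plus strand: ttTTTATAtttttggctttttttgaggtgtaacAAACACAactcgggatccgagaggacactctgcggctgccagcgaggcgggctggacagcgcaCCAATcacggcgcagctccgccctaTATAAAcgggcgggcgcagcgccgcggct

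Both intervals held 1 octamer, and TATAAA toward each gene. The H1-3 and H1-4 stretches each held 1 H1 box, 1 CCAAT and 1 TATAAA on the gene's strand in the same order. RefSeq windows of 300 bases (250 before to 50 after the start) were found for 64 of the 70 genes, 5 of them with more than 1 window. CCAAT was in 84.4% of the 64 and in 39.7% of all 27305 genes with a window, and TATAAA was in 43 of the 64 (67.2%) and in 3819 of all 27305. ATTTGCAT was in 14 of 17 H2B and 11 of 15 H2A genes, against 598 of all 27305 genes. The windows of head-to-head H2A and H2B partners cover the same interval, so the same match can count for both genes. AAACACA was in 7 of 9 H1 genes, against 6.94% of all genes. These are letter matches and not measured binding.

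In the lists of genes that act on histone mRNA and on its transcription, 0 genes passed the test in limma. SLBP had 3159 ± 385 normalized counts in wild type and 3450 ± 382 in the knockout (SD, n = 3 each) and was fitted at 0.13 on the log2 scale (limma adjusted p 0.724). NPAT, the coactivator of histone gene transcription at S phase, had 394 ± 124 and 558 ± 157 (log2 fold change 0.51, limma adjusted p 0.360). Of 20 genes of histone mRNA 3′ end formation, export and decay, and of 16 genes of histone transcription, 0 passed the threshold in limma, with 0 and 2 at an unadjusted p under 0.05. Their medians were 0.02 and 0.04. edgeR called 0 in both lists. DESeq2 called 0 of the first and 2 of the second, the cell cycle factor E2F1 lower and the CCAAT-binding subunit NFYC higher.

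Most genes of DNA replication and all listed genes of mitosis were fitted lower in the knockout, though fewer passed the test. Of 28 replication genes, 26 were fitted lower and 2 higher, with a median log2 fold change of -0.58. In limma 4 of the 28 (14.3%) fell past the threshold and 0 rose, beside 12.8% of all genes tested called in either direction and 6.79% called lower. Among them were TYMS, which makes thymidylate (-1.35, limma adjusted p 0.0029), the sliding clamp PCNA (-0.85, 0.0284) and GINS2 (-0.96, 0.0331). Of 20 mitosis genes, all 20 were fitted lower and 7 (35%) fell past the threshold, with a median of -0.78. CCNB2, a mitotic cyclin, fell from 4832 ± 241 to 2352 ± 76.6 normalized counts (SD, n = 3 each; limma adjusted p 0.0069). BIRC5, CDC20, MKI67, CDK1 and CCNB1 fell by 0.85, 0.78, 1.06, 0.72 and 0.69 on the log2 scale. How many genes were called in these lists varied with the libraries used, although TYMS was called in all 6 and CCNB2 in 5 of the 6 fits that left out a library. In the mitosis list 0 genes were called when wild-type replicate 1 was left out, 2 when its replicate 3 was, and 1 when knockout replicate 2 or 3 was. There were 2 such calls without a trend and 0 with the replicate block. In the replication list 1 gene was called when replicate 1 or 3 of the wild type or replicate 2 or 3 of the knockout was left out, and also with the replicate block. That list had 2 calls without a trend and 2 with equal upper quartiles. The medians stayed below 0 in every alternative tried, from -0.86 to -0.31 for replication and from -1.06 to -0.72 for mitosis. The median of the clustered histone genes was 1.03e-05 and also moved: without knockout replicate 1 the histone and replication medians were both -0.31. With equal totals 29 of the 43 histone genes were fitted lower, but there the median of all genes tested was also below 0, at -0.28. No test of the difference between these lists was made.

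Other histone genes and chaperones were counted too. Among 9 replacement variants tested, CENPA, the centromeric H3, fell by 1.03 on the log2 scale (limma adjusted p 0.0253), and the median was -0.16 (-0.32 to 0.12 leaving out each library in turn). Among 18 histone chaperones and importers, SSRP1, a subunit of FACT, fell by 0.84 (limma adjusted p 0.0218), and the median was -0.30. CENPA kept an adjusted p under 0.05 in 1 and SSRP1 in 2 of the 6 limma fits that left out a library. H2AW, H2BU1 and H4-16 have older HIST3H or HIST4H names, and their newer symbols lack the prefixes. They were fitted at 0.70, -0.24 and 0.01 (limma adjusted p 0.401, 0.852 and 0.995). H3-4 had no read.

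**Figure D5:**
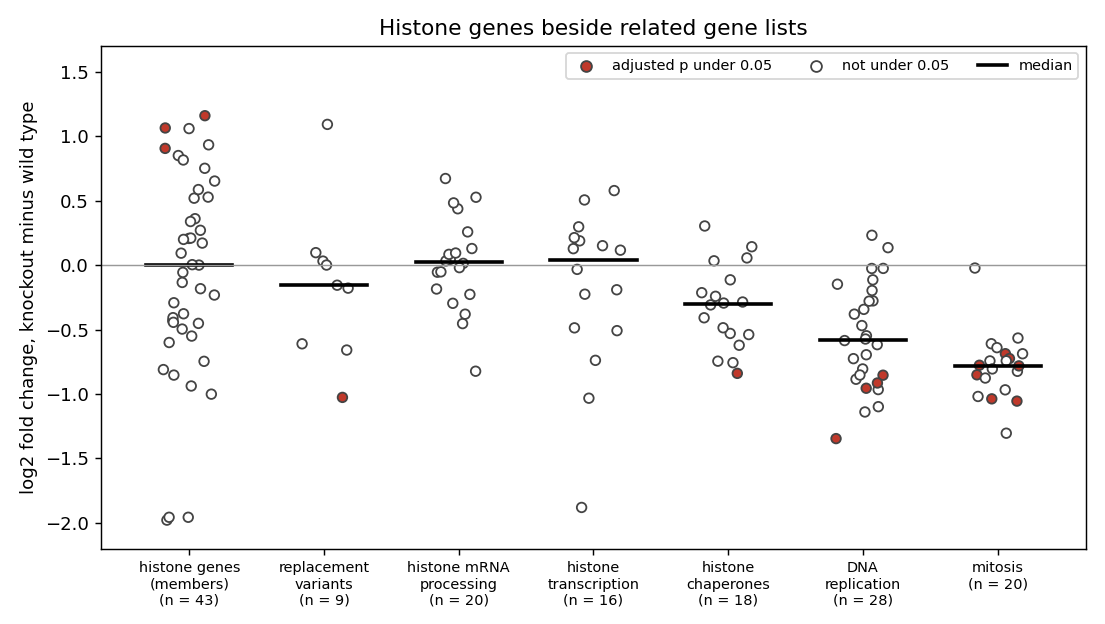
Log2 fold change (knockout minus wild type) of each tested gene in the clustered histone genes and in 6 related gene lists; filled points have a limma adjusted p under 0.05 and black bars are medians. The histone genes spread on both sides of 0, and the replication and mitosis lists lie mostly below it.

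STK25 itself had 8119 ± 1168 normalized counts in wild type and 3720 ± 251 in the knockout (log2 fold change -1.12, limma adjusted p 0.00903). The libraries held 22443904 to 53224112 reads. Wild-type replicate 2 and knockout replicate 1 stood apart and deviated together across genes. Wild-type replicate 2 had the highest wild-type value in 30 of the 43 histone genes (69.8%, against 41.5% of all genes tested), and knockout replicate 1 the highest knockout value in 27 (62.8%, against 41.8%). The median deviation of the histone genes from their genotype mean was 0.43 and 0.40 in those libraries on the log2 scale. Other genes with transcripts under 1000 bases deviated by 0.63 and 0.70. Without both libraries, an alternative chosen after seeing the data, 10 of 42 histone genes passed the threshold, 7 higher and 3 lower, against 30.6% of all genes tested. The 10 were H2BC21, H1-2, H1-3, H1-4, H1-10, H2AC6, H2AC19, H2AC11, H3C6 and H3C8. The part of these libraries in the results was not tested further.

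Levels of cell type markers differed between genotypes. In bulk RNA fewer cells of a type and less RNA per cell cannot be told apart. Smooth muscle markers were called higher in 5 of 5, with summed levels of 79383 to 89832 in the wild-type libraries and 491950 to 539638 in the knockout ones. Cardiomyocyte markers were abundant in both, TNNT2 among them, and were fitted in both directions. Of 12, 7 were fitted higher and 5 lower, with a median log2 fold change of 0.48. In limma 0 were called higher and 2 lower, NKX2-5 (-1.71, limma adjusted p 0.00135) and PLN (-0.76, limma adjusted p 0.0459). DESeq2 called 5 higher and 3 lower. The summed cardiomyocyte level was 1401690 to 1729320 in the wild-type libraries and 1994830 to 3589280 in the knockout ones, without overlap, a ratio of 1.75 (1.42 with equal totals). Fibroblast markers were called higher in 3 of 8 (COL3A1, DCN and THY1) and lower in 1 (COL1A2), and their summed levels overlapped, from 12924 to 26543 and from 7871 to 16398. Neural markers were called higher in 3 of 5 tested (SOX2, TUBB3 and PAX6), pluripotency markers in 1 of 5 (TDGF1), endothelial markers in 0 of 4 by limma, edgeR and DESeq2, with 1 at an unadjusted p under 0.05 in limma, and endoderm AFP was called lower. The summed pluripotency level was 891 to 1456 in the wild-type libraries and 2794 to 4339 in the knockout ones, without overlap. By gene the direction was mixed: of the 5 tested, 3 were fitted higher and 2 lower, with a median log2 fold change of 0.12. DESeq2 called 1 pluripotency marker higher and 2 lower. The summed endothelial and neural levels overlapped. CDH5 and VWF had at most 5 reads in any library, and SOX17 had none in wild type. The part of these markers in the histone values was not tested.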

How the data were processed

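Bulk RNA was sequenced from 3 wild-type and 3 STK25 knockout samples. The deposited table gives a signal per gene that the authors call normalized counts. Every value was a whole number of reads (tolerance 0.01) divided by 1 factor per library, and 0 columns were left unused. The submitters' processing notes name bcl2fastq 2.19, kallisto 0.44.0, DESeq2 1.28.1 and the GRCh38 build, without roles. kallisto estimates counts, so the recovered reads may be rounded estimates, and near-identical histone copies can trade reads. Per the labels' protocols, a Clontech Ultra Low v4 kit made the cDNA and NexteraXT the libraries. Depth was 22443904 to 53224112 reads per library, which bears on counting error only.

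Tests used limma 3.58.1 in R 4.3.3 (lmFit, eBayes with a trend) on log2(value + 1), two-sided, where the mean of a gene reached 10, with Benjamini-Hochberg adjustment over all tested genes and a threshold of 0.05. Fold changes are on the log2(value + 1) scale, which understates changes of low genes. As alternatives, recovered reads were fitted with edgeR 4.0.16 and DESeq2 1.42.0. All 3 tools were tested on simulated data whose dispersions came from these libraries, and there limma and edgeR missed nearly all of the smaller of the changes simulated. A smaller share of genes was changed there than was called here, which makes the adjustment stricter, and the libraries were drawn independently. Recovery in the real libraries may therefore differ. Positions and promoters are from RefSeq GRCh38.p14, and transcript ends from GENCODE 29. The named genes were STK25, histone genes past the threshold, the 3 most abundant of each class, SLBP, NPAT, up to 6 called genes per list and defining cell markers; not all markers are named, and some genes that this rule takes are not reported here. The histone genes and the 13 lists were chosen with earlier results of these data known. Alternatives were other pseudocounts, filters, scalings and tools, a replicate block, and leaving out libraries.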

Additional observations from a re-analysis of the deposited data

How the results depend on the processing

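The count of histone genes past the threshold (3 in limma) depended on the settings: it was 0 with the replicate block, 1 with eBayes without a trend, with edgeR, with equal totals and with equal upper quartiles, 5 with DESeq2, and 10 without wild-type replicate 2 and knockout replicate 1 together. Without a filter it was 3, but H1-1 and H3C3 took the place of H1-3 and H1-4. Leaving out each library in turn gave 0 to 2. Under equal totals H2AC11, lower, was the gene called. The count over all genes (1982) was 798 with the replicate block, 3210 with DESeq2, 4706 without both libraries, and 792 to 2192 leaving out each library in turn. Deviations of same-numbered libraries correlated at -0.235, -0.40 and 0.169, and those of wild-type replicate 2 and knockout replicate 1 at 0.45. Each deviation is from the mean of its genotype, so the 3 values within a genotype are tied to each other. These correlations therefore cannot decide whether the samples were made in numbered pairs. Equal totals moved the median of all genes by -0.28 and the split of calls from 927 higher and 1055 lower to 546 and 1466. The median log2 fold change of the tested histone genes was -0.31 there and between -0.31 and 0.16 over all alternatives, within the spread of 0.36 between libraries. The log2 ratio of the summed signal stayed between 0.19 and 0.66, above 0 in every alternative tried. The spread of that sum between libraries was 0.294. The log2 ratios with equal totals (0.193) and without knockout replicate 1 (0.293) lay within this spread.

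The medians of the related lists moved under equal totals to -0.44 (replacement variants), -0.26 (mRNA processing), -0.24 (transcription), -0.58 (chaperones), -0.86 (replication), -1.06 (mitosis), 0.20 (cardiomyocyte) and 1.93 (smooth muscle). The endothelial median (1.19) was 0.84 with a pseudocount of 10, 0.028 without a filter, 0.51 with edgeR, 0.53 with DESeq2 and 0.17 without both libraries. The endoderm median (-3.80, 2 genes) was -4.57 and -2.32 with pseudocounts of 0.1 and 10, -5.21 with a mean of at least 50, and reversed to 0.39 without a filter. The neural median (2.99) was 1.99 with a pseudocount of 10, 1.82 without a filter and 3.46 without both libraries. Leaving out each library in turn, the medians ran from -0.025 to 0.13 (mRNA processing), -0.32 to 0.12 (replacement variants), -0.73 to -0.31 (replication, the last without knockout replicate 1), -0.86 to -0.72 (mitosis), -0.43 to -0.27 (chaperones), 0.39 to 0.55 (cardiomyocyte), 0.35 to 1.35 (endothelial), 2.00 to 2.34 (smooth muscle), -0.25 to 0.48 (pluripotency) and 2.50 to 3.47 (neural). The cause was not tested.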
